A study of Ovis aries with 16 samples.

Results

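ASIP, the gene of agouti signalling protein, was followed across 16 left ventricles of fetal sheep. All probes on the array whose gene name, transcript or description named ASIP were taken, which gave 2 of the 15008 probes and 1 of the 992 named genes. The choice of the gene rested on its own signal, detection calls, twin ratios and rank, so these values are given as a description and without a test.

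The fetuses came from 8 twin pairs, whose breed the labels do not state, and were fitted with catheters at 125 to 126 days of a gestation with term at 145 days. In twin sets 1 to 4, 1 fetus received losartan, an antagonist of the angiotensin II receptor type 1, and the other was left untreated. In twin sets 5 to 8, 1 fetus received angiotensin II, the pressor peptide of the renin-angiotensin system, and the other was left untreated. Hearts were taken after 5 days, and each group held 4 fetuses, with 1 array per fetus. The labels call the infusions both daily and continuous, and the tissue both free wall and free wall with septum.

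Agouti signalling protein is a secreted antagonist of melanocortin receptors. In skin it blocks the action of melanocyte-stimulating hormone on pigment cells and so shifts them from dark to yellow pigment. In the mouse its normal transcription is largely restricted to skin, whereas in sheep a tandem duplication found in many white animals places a copy of ASIP behind the promoter of the neighbouring gene ITCH, and such animals transcribe it in many tissues. The labels give neither coat colour nor ASIP genotype for these fetuses.

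Both probes match the same ASIP transcript, and they are shown because every value below rests on these 2 stretches. The upstream probe covers bases 577 to 636 of the transcript and is given whole. The downstream probe covers bases 951 to 1010, and its last 30 bases are given, with the run of A bases at its end in capitals. Positions are those written in the scanner files, counted from the start of the transcript.
ASIP upstream probe: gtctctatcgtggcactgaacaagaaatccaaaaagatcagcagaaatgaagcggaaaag
ASIP downstream probe: aaatccaatacatgtagtcttctcgAAAAA
Each probe is 60 bases long. The start of the downstream probe lies 374 bases beyond that of the upstream probe, so they share no base of the transcript. The GC content was 41.7% for the upstream and 43.3% for the downstream probe. The longest run that any other probe of the array shared with the upstream probe was 14 bases, and 12 bases for the downstream probe.

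ASIP gave a bright signal in 15 of the 16 ventricles and none well above background in the remaining fetus, the untreated twin of set 8. The scanner software calls a spot well above background when its signal clears the background spread, and both probes carried this call on the same 15 arrays. On those arrays the downstream probe had a processed signal of 8722 to 40899 fluorescence units (median 23189), and the upstream probe 902 to 3933 (median 2394).

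In the untreated twins of the losartan arm the downstream probe read 19894, 23189, 26546 and 25016 units in sets 1 to 4. Their losartan twins read 27896, 13490, 20976 and 25970 units. The groups overlapped: the losartan fetus of set 2 was the lowest of these 8 and the losartan fetus of set 1 the highest. With the upstream probe the untreated fetuses read 1956, 3501, 2656 and 2645 units and the losartan fetuses 2815, 1414, 2065 and 2394. The losartan fetus of set 2 was again the lowest, while the highest was here its untreated twin.

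In the angiotensin II arm the downstream probe read 18117, 40899, 30321 and 15174 units in the treated fetuses of sets 5 to 8. Their untreated twins read 8722, 31867, 17635 and 26.2 units. Each treated fetus was above its own twin, yet the groups overlapped, since the untreated fetus of set 6 was above the treated fetuses of sets 5, 7 and 8. With the upstream probe the treated fetuses read 1556, 3556, 3933 and 1797 units and the untreated ones 902, 2846, 1888 and 22.5. The value of 26.2 and that of 22.5 are surrogates, numbers that the software puts in place of a signal too near background to be measured.

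**Figure D1:**
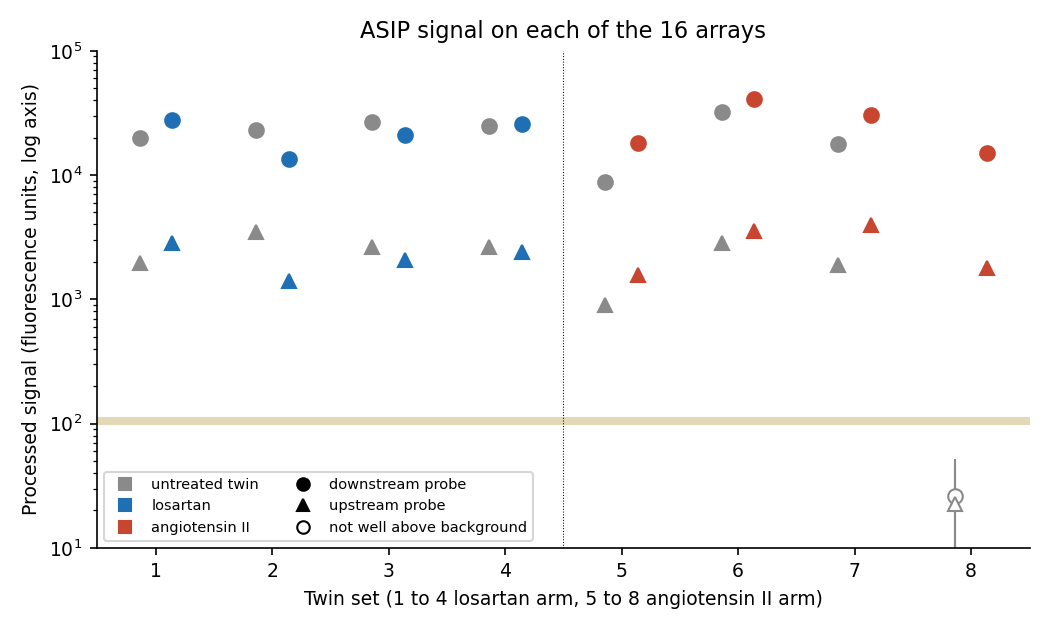
Processed signal of the downstream (circles) and upstream (triangles) ASIP probe in fluorescence units on a log axis, by twin set; colours give the treatment, bars the signal error stated by the software (mostly smaller than the symbols, cut at the axis for set 8), the band the lowest signal well above background on each array, and open symbols spots not well above background. On 15 arrays the downstream probe lay between 8722 and 40899 units, and on the untreated array of set 8 both probes were below the band.

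The raw spots of the untreated fetus of set 8 had mean signals of 114 units with the downstream and 98.6 with the upstream probe, over local backgrounds of 36 and 37 units. The lowest signal that was well above background on this array was 109 units after processing. Set against that limit, the angiotensin II twin was at least 130-fold higher with the downstream probe. With the upstream probe, which is dimmer on every array with signal, the twin was at least 15.4-fold higher. These folds set the normalized value of the 1 twin against the limit of the 1 array, and the limit stands in for the dim spots, whose own level is not known.

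The next lowest fetus, the untreated twin of set 5, was still at least 70.4-fold above the same limit with the downstream and 7.28-fold with the upstream probe. The mean of the other 7 untreated fetuses was at least 167-fold above it with the downstream probe and 17.8-fold with the upstream probe. The array of the untreated twin of set 8 had 9049 probes well above background, within the range of 8601 to 9615 over the 16 arrays. It correlated with the other arrays at a median r of 0.9789, where the 16 arrays ranged from 0.9644 to 0.9861. Along the first principal component, which held 32.1% of the variance, its score was -5.18.

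On that component 3 arrays stood apart. They lie side by side on slide 2, in row 2 and columns 2 to 4, and the part of this position was not tested. The untreated fetus in set 2 scored 39.8, and the fetuses given angiotensin II in sets 7 and 8 scored 37.4 and 30.2, against scores of -19.1 to -0.422 on the others. The treated member of set 8 is thus 1 of them, while the untreated member, without ASIP signal, is not. Twin ratios of ASIP and the melanocortin genes are also given without the sets of these arrays.

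To place the signal of the untreated fetus of set 8, every probe was compared with the median of the same probe over the other 15 arrays, on log2 values scaled to each array's 75th percentile. Probes entered if they were well above background on all 15 other arrays, which gave 8051 probes for this array and 128809 values over the 16 arrays. With the dim ASIP spots set at the limit of 109 units, the downstream probe deviated by at most -7.66 and the upstream probe by at most -4.36. Of the values of other probes 0 were below the downstream limit, and 4 were below the upstream limit, on the losartan array of set 4 and the untreated array of set 5. Only 1 of these 4 was a spot well above background. The lowest of them was -5.26, an unnamed probe on the losartan array of set 4. How far a value can fall depends on how bright its probe is, and most probes were too dim to reach -7.66. ASIP was chosen on these levels, so the counts are a description and no test.

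**Figure D2:**
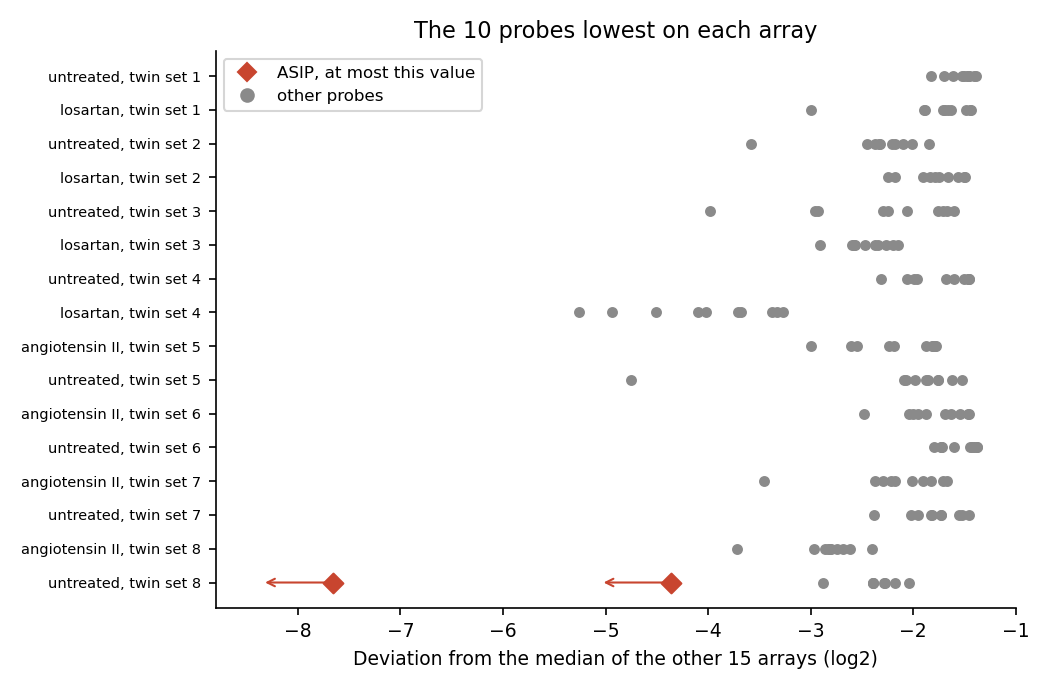
Deviation from the median of the other 15 arrays (log2, x axis) of the 10 lowest probes on each array (y axis), among probes well above background on the other 15 arrays; diamonds with arrows are upper limits for ASIP. The ASIP probes can enter only on the array of the untreated twin of set 8, where they stand at or below -7.66 and -4.36, and the lowest other point is at -5.26 on the losartan array of set 4.

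By its median the rest of that array lay close to the others. The 8051 probes had a median deviation of 0.05 with an SD of 0.34 log2 units. This SD was larger only on the arrays that stood apart (0.47 to 0.52) and the losartan array of set 4 (0.40). The smallest was 0.23, on the untreated array of set 7. Of the 8051 probes 20, the 2 ASIP probes included, were not well above background on the untreated array of set 8. In the 96 spots within 6 rows and columns of the upstream probe the median deviation was 0.01, with a range of -0.61 to 0.63. In the 90 spots around the downstream probe it was 0.06, with a range of -1.34 to 0.60. The spots near the 2 ASIP probes thus read close to their level on the other arrays.

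After ASIP, the named genes lowest in this fetus were mostly interferon-induced. ISG15, a ubiquitin-like modifier, deviated by -2.88, and the antiviral GTPases MX1 and MX2 by -2.39 and -2.29. The beta-globin gene HBB stood at -2.04 and RTP4, a receptor transporter induced by interferon, at -1.83. All 5 were still well above background there. The angiotensin II twin, which had ASIP signal, was low in most of them too: ISG15 deviated by -2.74 in it, MX1 by -2.23, MX2 by -2.40, HBB by -3.72 and RTP4 by -0.71. Other fetuses with ASIP signal also had low values. The losartan fetus of set 4 had ISG15 at -2.62, MX1 at -1.64 and MX2 at -1.40. HBB was at -2.93 in the untreated fetus of set 3, and RTP4 at -1.18 in its losartan twin. These genes were chosen for their values on this array, and their part in the ASIP reading was not tested.

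Among the 15 fetuses with signal, ASIP was more variable than most transcripts. The SD of the normalized log2 level was 0.51 with each probe, against a median SD of 0.23 over the 8051 probes, at percentile 93.7 for the downstream and 93.6 for the upstream probe. The highest fetus, the angiotensin II twin of set 6, read 4.39-fold above the lowest, the untreated twin of set 5, in normalized downstream level. Twins differed by a median of 0.36 log2 units with the downstream probe over 7 sets, and the 98 other pairs of these 15 arrays by 0.51. Twins share parents and, in sets 2, 3 and 6 of these 7, a slide, and no test was made of this difference.

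By group, the downstream probe had normalized log2 levels of 3.98 ± 0.34 (SD, n = 4) with losartan and 4.10 ± 0.10 (n = 4) in the untreated twins. With angiotensin II the level was 4.03 ± 0.54 (n = 4), and in the untreated twins 1.19 ± 4.59 (n = 4). Without the untreated fetus of set 8 that last level was 3.46 ± 0.89 (n = 3). The order of the group means was then untreated twins of the losartan arm, angiotensin II, losartan and untreated twins of the angiotensin II arm, and every neighbouring pair in it differed by less than 1 SD of the more variable group. With the upstream probe the levels were 0.94 ± 0.20, 0.76 ± 0.53, 0.64 ± 0.27 and 0.13 ± 0.79 (n = 3) in that order. In bulk tissue, fewer cells of a type and less RNA per cell cannot be told apart.

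The twin ratio, treated minus untreated on the log2 scale, was near 0 with losartan. With the downstream probe it was -0.12, -0.46, -0.05 and 0.17 in sets 1 to 4, a mean of -0.12 ± 0.26 (SD, n = 4 sets). With the upstream probe it was -0.08, -0.99, -0.07 and -0.03, a mean of -0.29 ± 0.47 (n = 4). The losartan twin was lower in 3 of 4 sets with the downstream and in 4 of 4 with the upstream probe. Set 2, whose untreated member is 1 of the 3 arrays that stood apart, gave the most negative ratio with both. Without it the means were 0.00 ± 0.15 and -0.06 ± 0.03 (n = 3).

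With angiotensin II every treated fetus was above its twin in the processed signals. The ratio with the downstream probe was 1.19, 0.36, 0.73 and 9.08 in sets 5 to 8, and with the upstream probe 0.92, 0.32, 1.01 and 6.22. The means were 2.84 ± 4.17 and 2.12 ± 2.75 (SD, n = 4 sets), so the SD exceeded the mean with each probe. Set 8 decided both: without it the means were 0.76 ± 0.41 and 0.75 ± 0.37 (n = 3). Sets 5 and 6, which hold none of the arrays that stood apart, gave 0.77 ± 0.58 and 0.62 ± 0.42 (n = 2). The ratio of set 8 rests on surrogate values and gives no measured size; the folds of at least 130 and 15.4 above stand in its place.

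**Figure D3:**
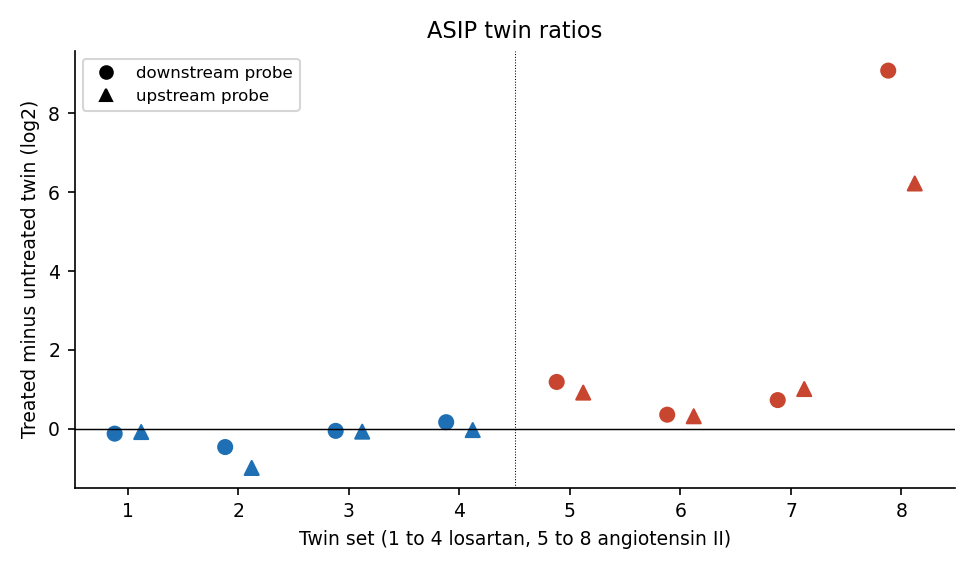
Treated minus untreated twin (log2, y axis) of the downstream (circles) and upstream (triangles) ASIP probe in each twin set (x axis), losartan in blue and angiotensin II in red. Ratios lay between -0.99 and 0.17 with losartan and between 0.32 and 1.19 in angiotensin II sets 5 to 7, and set 8 read 9.08 and 6.22 because its untreated member had no signal well above background.

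The authors' value table gave other twin ratios for ASIP. On its values, put on the log2 scale, losartan sets 1 to 4 read 1.05, -0.35, -0.16 and 1.19, a mean of 0.43 where the processed signals gave -0.12. Sets 1 and 4, which moved most in this arm, have their twins on different slides. Over all tested probes the slide means differed by a median of 0.03 log2 units in that table and by 0.142 in the processed signals, so the slides are closer in the table. With angiotensin II, sets 5 to 8 read -0.01, 0.45, 1.71 and 6.53 in the table, so the treated fetus of set 5 was no longer above its twin. For ASIP the mean of slide 2 minus that of slide 1 was -1.56 in the processed signals and -0.16 in the table. Without the untreated fetus of set 8, which is on slide 2, the same difference was -0.39 in the processed signals and 0.69 in the table. The labels and headers do not say how the table was made.

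Between the 2 probes the level differed by a factor that was not the same on every array. The downstream signal was a median of 9.91 times the upstream signal over the 15 arrays with signal, from 6.62 to 11.6. On the 3 arrays that stood apart it was 6.62, 7.71 and 8.44 times, and on the other 12 arrays 9.34 to 11.6 times, so these ranges did not overlap. In the untreated fetus of set 8 the factor was 1.17, since both spots were near background. The probes correlated at r = 0.991 over 16 arrays and 0.908 over the 15 with signal, where they share the same RNA and labelling. The signals of different probes do not compare transcript amounts, and the factor describes these 2 probes only.

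**Figure D4:**
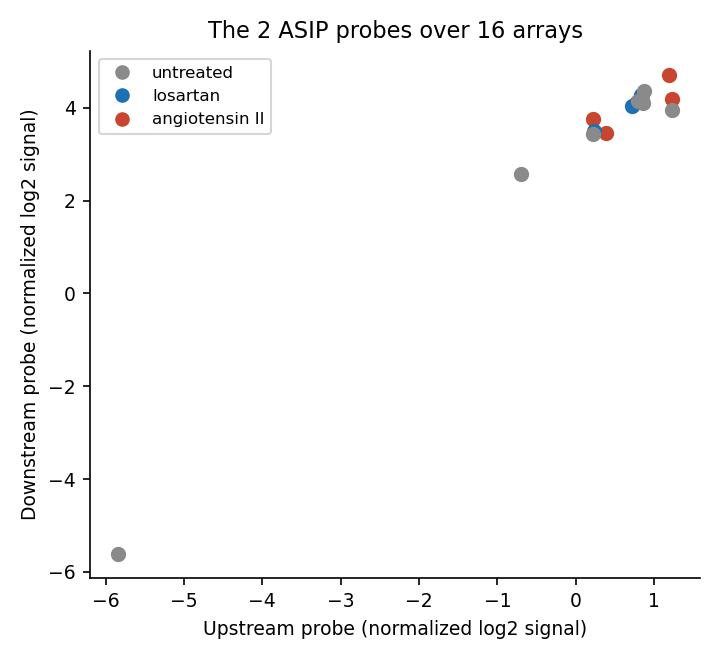
Normalized log2 signal of the downstream (y axis) against the upstream ASIP probe (x axis), 1 point per array, coloured by treatment. Of the 16 points, 15 lie together at the upper right, and the untreated fetus of set 8 stands alone at -5.84 and -5.61.

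The ASIP spots were among the bright ones of the array. Ranked by the brightest probe of each gene, the downstream probe stood at place 46 to 104 of 992 named genes on the 15 arrays with signal (median place 59), and at place 249 to 1060 among all 15008 probes. Over the 16 arrays its median percentile among named genes was 94.1. The upstream probe would have stood at place 172 to 270. In the untreated fetus of set 8 the downstream probe was at percentile 11.7 of the named genes. These are ranks of spot brightness, which depends on each probe as well as on the amount of transcript.

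The other genes of melanocortin signalling show what else of this system was measured. Of 38 listed genes 9 were on the array under a name, and 4 could be tested, having passed background on all arrays of 1 or more groups. They were POMC, the precursor of the melanocortin peptides, CPE, a carboxypeptidase that trims such peptides, and PRKACA and PRKAR1A, a catalytic and a regulatory subunit of the cAMP-dependent kinase. The receptors MC2R and MC5R, the second antagonist AGRP and the convertase PCSK1 were well above background on 0 arrays. The transcription factor CREM was above it on 1 array, over all 4 of its probes. The probe of MC5R is called MC1R in the array's design but cites a transcript that the reference gene table gives to MC5R.

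With losartan 0 of the 4 tested genes passed (limma, adjusted p under 0.05 over all probes), against 1.22% of 8970 tested probes. With angiotensin II 0 of 4 passed, where 0.0% of probes did. In the difference of the effects 0 of 4 passed, against 1.64% of probes. At an unadjusted p under 0.05 the counts were 1, 2 and 1 of 4, and 1104, 935 and 1859 of 8970 probes; no other test was run. All 4 estimates were below 0 with losartan (median -0.14) and above 0 with angiotensin II (median 0.30), where the medians were 0.01 and -0.02 over all probes and -0.05 and 0.06 over named genes. These signs did not all hold without the sets of the arrays that stood apart. Without set 2 the mean twin ratio of POMC with losartan was 0.16, and without sets 7 and 8 that of PRKACA with angiotensin II was -0.03.

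CPE had the smallest p-value of the 4 with losartan and in the difference of the effects. Its twin ratios were -0.06, -0.94, -0.49 and -1.26 in sets 1 to 4 and 0.48, 0.05, 0.77 and 0.45 in sets 5 to 8. The estimates were -0.69 ± 0.19 (SE, limma adjusted p = 0.154) and 0.44 ± 0.19 (limma adjusted p = 0.479). The effects differed by 1.12 ± 0.26 (SE, limma adjusted p = 0.0687), and this difference passed in 3 of 18 alternative analyses, with adjusted p from 0.019 to 0.357 over them.

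POMC was well above background on all 16 arrays, and its estimate with angiotensin II was 0.62 ± 0.23 (SE, limma adjusted p = 0.467), higher in 3 of 4 sets, and its mean twin ratio without sets 7 and 8 was 0.31. With losartan it was -0.10 ± 0.23 (limma adjusted p = 0.895). PRKACA stood at -0.16 with losartan and 0.13 with angiotensin II, and PRKAR1A at -0.12 and 0.17. In the untreated fetus of set 8 POMC deviated by -0.70 and CPE by -0.52 from the median of the other arrays, and PRKACA and PRKAR1A by 0.26 and -0.14.

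**Figure D5:**
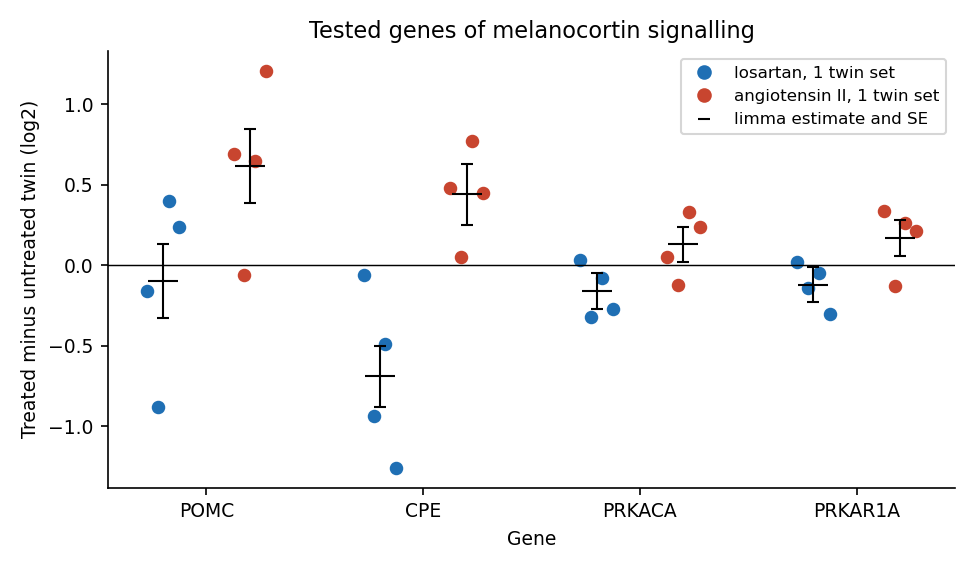
Treated minus untreated twin (log2, y axis) of the 4 tested genes of melanocortin signalling (x axis), 1 point per twin set, with the limma estimate and its SE as bars. The CPE points with losartan lie between -1.26 and -0.06 and those with angiotensin II between 0.05 and 0.77; no gene passed the threshold.

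Markers of pigment cells, on which agouti acts in skin, and of keratinocytes were few on the array, 4 of 20 and 3 of 12. Tyrosinase TYR, which starts pigment synthesis, and the receptor KIT were well above background on 0 arrays, and the KIT ligand KITLG on 6. The endothelin receptor EDNRB, also made by other cells, was above it on 16. The keratinocyte genes KRT15, TP63 and SFN were above it on 0 arrays, with summed signals of 78 to 111 units over all groups. The heart was plain: the cardiomyocyte genes MYH7, TPM1 and MB were above background on 16 arrays each, although only 3 of 29 such markers were on the array.

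Some genes on the list of fat cell markers gave signal. Of 22 listed genes 12 were on the array and 7 could be tested. Of these 7, 0 passed with losartan, 0 with angiotensin II and 0 in the difference. Over all 8970 tested probes the shares were 1.22%, 0.0% and 1.64%. The fatty acid synthesis genes FASN and ACACA were well above background on 0 arrays and the desaturase gene SCD on 1, while PPARG, a regulator of fat cell formation, was above it on 16. LPL, the lipase of capillary walls, had an estimate of 0.65 ± 0.15 (SE, limma adjusted p = 0.0809) with losartan and -0.34 ± 0.15 (limma adjusted p = 0.479) with angiotensin II. The summed signal of the 12 genes was 39687 to 59185 units with losartan, 29369 to 36973 in the untreated twins, 32899 to 52335 with angiotensin II and 37756 to 48299 in its untreated twins. The untreated fetus of set 8, itself 1 of the 4 behind that last range, had 45072 units. The brightest genes weigh most in such a sum, such as LPL, at a normalized log2 level of 4.46 in this fetus.

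Of this list, FABP4 and UCP1 varied between fetuses in another order than ASIP. FABP4, a fatty acid carrier of fat cells, was well above background on 7 arrays and UCP1, the uncoupling protein of brown fat, on 3; they were singled out after their values were seen. Neither was above it in the untreated fetus of set 8, and both were in its angiotensin II twin and in both the untreated fetus of set 6 and that of set 5. The last of these had the lowest ASIP level with signal. The angiotensin II twin of set 5 had neither gene above background, and its ASIP level was 1.19 log2 units above that of its twin. PLIN1 and LEP, also on the list, were well above background on all 16 arrays. In the untreated fetus of set 8 they were not low, with deviations of 1.51 and 0.31. PLIN1 differed by slide, at -1.21 to -0.98 on slide 1 and 0.24 to 0.69 on slide 2. The part of fat in the ASIP level was not tested further.

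Neighbouring genes were scarcely measured. In the RefSeq gene order of the assembly ARS-UI_Ramb_v3.0, ASIP lies between EIF2S2, a subunit of a translation initiation factor, and AHCY, which breaks down S-adenosylhomocysteine, with the ubiquitin ligase gene ITCH just beyond AHCY. None of these 3 had a probe that could be named. The nearest measured gene was ACSS2, an acetyl-CoA synthetase 9 genes away, well above background on 16 arrays. It deviated by 0.45 in the untreated fetus of set 8, so it was not low there, and its estimates were -0.33 ± 0.23 (SE, limma adjusted p = 0.601) and 0.37 ± 0.23 (limma adjusted p = 0.534). TRPC4AP, 12 genes away, was above background on 15 arrays, the untreated fetus of set 8 included.

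Of 444 named genes well above background on all 16 arrays, those whose levels were most like ASIP were EIF4A2 (Pearson r = 0.609), RTP4 (0.606), PHF14 (0.592), NCK1 (0.564) and SPA17 (0.554). Over the 15 arrays with ASIP signal, which leave out the surrogate value of the untreated fetus of set 8, r was 0.251, 0.257, 0.434, 0.09 and 0.509. EIF4A2, RTP4 and NCK1 thus lost most of their r without that fetus, and PHF14 and SPA17 kept most of it. Without the untreated fetuses of sets 8 and 5, the 2 farthest from the ASIP median, EIF4A2 was at -0.066 and PHF14 at 0.245. RTP4 was then at 0.355, NCK1 at 0.142 and SPA17, a sperm surface protein gene, at 0.60. Spearman's rho over 16 arrays was 0.374 for EIF4A2 and 0.588 for SPA17. The most opposed genes were CCL25 (r = -0.679), TPM1 (-0.678) and GLT-1 (-0.656), at -0.243, -0.529 and -0.401 over 15 arrays. The points share arrays, slides and scaling, and these correlations are descriptions.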

How the data were processed

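Total RNA of 16 left ventricles was measured on Agilent sheep arrays with 1 colour (Cy5, red channel), on 2 slides of 8 arrays; RNA integrity numbers were 7.5 to 10, per the labels. The deposited scanner files hold spot intensity in fluorescence units, background-subtracted and detrended by Agilent Feature Extraction 10.7.3.1, per the file headers. The authors' deposited value table follows the natural log of each spot's mean signal (lowest r 0.9978) and served as an alternative.

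Processed signals were put on the log2 scale and each array's 75th percentile was subtracted, which was 1124 to 1709 units. Control spots and 3 to 9 outlier spots per array were left out, spots of 1 probe were averaged, and 0 probe values were saturated. The number of arrays limits the precision. Gene names came from the files and the RefSeq gene table; 1671 probes had a name and 13337 had none. ASIP was represented by its downstream probe, the brighter, where only 1 was used; list genes by their brightest tested probe.

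Tests were fitted in limma 3.58.1 (R 4.3.3) over 8970 probes, two-sided, with Benjamini-Hochberg adjustment at 0.05, the 8 twin sets as blocks and 1 term per treatment (6 residual degrees of freedom). The script was tested on simulated data. The pairing comes from the labels; deviations of twins correlated at -0.039 to 0.53 (mean 0.24). Named genes were ASIP, the measured melanocortin genes and neighbours, up to 5 members of other lists by smallest p, and the 5 most and 3 least ASIP-like genes; genes lowest or highest on 1 array were added. A withheld item is left out. The limit on the ASIP deviation was chosen after seeing the data. ASIP, the lists and their members were chosen with earlier results of these data known. Alternatives were other background corrections, scalings, filters and blocks, the value table, and leaving out twin sets. Figures used matplotlib 3.10.9.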

Additional observations from a re-analysis of the deposited data

Results flagged for a closer look

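In groups of 4, a value was picked out where its gap to the nearest other, over the whole range, passed Dixon's limit of 0.829. Of 36 groups 5 had such a value, 4 of them in ASIP. The rule picks about 1 in 20 by chance only in independent groups not chosen on their values, so that rate cannot judge this count. ASIP was chosen on these levels and ratios, so its 4 values are a description and no test. With angiotensin II the ASIP twin ratio of set 8 stood apart with the downstream probe (9.08, gap 0.905 of the range) and the upstream probe (6.22, gap 0.884), both from surrogate values of the untreated fetus. With losartan the upstream ratio of set 2 stood apart (-0.99, gap 0.947), and its untreated fetus did so in level among the untreated twins of that arm (1.23, gap 0.855). That array is 1 of the 3 that stand apart from the rest. The regulatory kinase subunit PRKAR1A had 1 losartan fetus at 1.80 log2 units (gap 0.839).

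With the upstream ASIP probe all 4 twin ratios of scaled values were below 0 with losartan and all 4 above 0 with angiotensin II. Before scaling, the ratio of losartan set 1 was 0.53. The arm means differed by 2.41 log2 units, or by 1.04 without set 8, and the difference was not tested. In the authors' value table the upstream ratios of losartan sets 1 and 4 were 0.44 and 0.58, so the arms were not on opposite sides there. With the downstream probe set 4 was above 0 with losartan, and the arm means differed by 2.95, or by 0.88 without set 8.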

How the results depend on the processing

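The losartan twin ratio of ASIP moved from -0.12 to 0.43 with the authors' value table, and stayed within 1 SD under the other 12 alternatives (-0.21 to 0.00 when leaving out 1 set each). The angiotensin II ratio of 2.84 ranged from 0.76 to 4.72, all within its SD of 4.17, which set 8 makes wide; leaving out 1 set each gave 0.76 to 3.67. The median percentile among named genes (94.1) ranged from 88.7 to 97.3, and from 93.7 to 94.2 when leaving out 1 set each. Of the melanocortin genes 0 passed with either treatment under all 18 alternatives. In the difference of effects 1 passed, CPE, with normexp, with the value table and without set 1, so that leaving out 1 set each gave 0 to 1. All probes called with losartan, 109, became 434 with the value table, 57 when only probes well above background on all 16 arrays were used, and 34 to 99 when leaving out 1 set each (lowest without set 3; 65 without set 1 and 49 without set 4). With no twin pairing as a block the count was 0. With angiotensin II it was 0, and 1 without sets 2, 7 and 8; leaving out 1 set each gave 0 to 0. The causes were not tested. Dim spots limit what can be said of the untreated fetus of set 8: below 109 units no level is known.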

Other observations

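Over the 15 arrays with ASIP signal alone, the named genes most like its level included SLC17A5, a lysosomal transporter (r = 0.648), and the integrin chain ITGAV (0.548). The most opposed were I-MF (-0.628), ROBO2, an axon guidance receptor (-0.615), and SLC25A17 (-0.592). Over all 16 arrays SLC17A5 was at 0.297. These genes were named after their values were seen, among 444 compared.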
